A study of Mus musculus with 6 samples.

Results

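The 7 keratin genes described here are Krt5, Krt14 and Krt15, which mark basal cells of stratified epithelia, and Krt6a, Krt6b, Krt16 and Krt17, which are called wound keratins. They were chosen by name with earlier results of these data known, as were the gene lists below. No list was therefore tested as a set. The 7 are the rows of the deposited table that carry these symbols, and all were found among its 49671 genes. The RNA came from LKPR EPCAM+, an epithelial line grown out of a squamous cell carcinoma of mouse skin. The genotype given is the same for every group and includes, though it is not listed in full here, Lgr5CreER, p53fl/fl and Rosa26-YFP, so all groups carry the same floxed p53 allele and the same fluorescent reporter. In this kind of model the recombinase is driven from Lgr5, a gene active in stem cells of the hair follicle. The groups were cells with an empty lentiviral vector, cells in which Ntn1, the gene of the secreted ligand netrin-1, had been knocked down, and cells in which Unc5b, the gene of a receptor for it, had been knocked down. All were cultured for 6 days in serum medium with hydrocortisone and then sorted as living YFP+ and EPCAM+ cells. Each of the 3 groups had 2 libraries from this single line, the labels do not say whether these were separate cultures, and p-values therefore measure a spread that may be technical. The sources used here do not give the number of hairpins per target.

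Values are the deposited ones, whole numbers scaled to about 20 M per library. The estimated depth was 6.54 to 10.2 M reads per library, so 1 read was worth 1.97 to 3.06 of these units and 3 reads were worth 5.90 to 9.17. Both targeted transcripts were lower in their own knock-down. Ntn1 was at 1566 and 2588 with the empty vector and at 359 and 431 with Ntn1 knocked down, 5.26-fold lower (limma, adjusted p = 0.00162). Unc5b was at 1527 and 1573 with the empty vector and at 419 and 352 with Unc5b knocked down, 4.02-fold lower (limma, adjusted p = 0.000252). Each was also measured under the other knock-down. Ntn1 was at 1319 and 771 with Unc5b knocked down, 1.99-fold lower than with the empty vector, which was not called (limma adjusted p = 0.0638). Unc5b was at 2311 and 2382 with Ntn1 knocked down, 1.51-fold higher (limma adjusted p = 0.0193), a call that was lost on leaving out library 1 (0.15) or 2 (0.175) of the Ntn1 knock-down, with no filter on low values (0.0516) and with no variance trend (0.0636). The line expressed epithelial genes in every library, with a summed level of 57811 to 66103 over 8 epithelial markers. The summed level of 7 fibroblast markers was 136 to 137 with the empty vector, 208 to 309 with Ntn1 knocked down and 139 to 237 with Unc5b knocked down. The 5 melanocyte markers summed to 24 to 32 with the empty vector, 50 to 61 with Ntn1 knocked down and 30 to 58 with Unc5b knocked down. The 7 immune markers, 3 of them at 0 throughout, summed to 8 to 12, 14 to 21 and 17 in the same order, and the hair shaft markers to 5 to 8, 6 to 9 and 11. Of the other markers, 4 of endothelium summed to 96 to 108 with the empty vector. With Ntn1 knocked down they summed to 178 to 223 and with Unc5b knocked down to 88 to 98. The 4 of sebocytes summed to 1818 to 3944, 911 to 1067 and 831 to 1445 in the same order. The endothelial rise was that of Cdh5, at 0 and 0, 86 and 113, and 2 and 0. Pecam1 was at 104 and 94, 90 and 107, and 96 and 88. Most of the sebocyte sum was Mgst1, at 1751 and 3821, 880 and 1027, and 1381 and 790. Pdgfra was the largest part of the fibroblast sum and Pmel of the melanocyte sum. The part of these markers in the keratin values was not tested.

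Keratins are the intermediate filament proteins of epithelial cells, and a filament needs a type I and a type II keratin in equal amounts. Basal keratinocytes pair the type II keratin K5 with the type I keratins K14 and K15, and K15 is enriched in stem cells of the hair follicle bulge. Injured, hyperproliferative and cancerous epidermis induces the type II keratins K6a and K6b together with the type I keratins K16 and K17, some of which are also made constitutively in hair follicle sheaths and nails. Simple epithelia and many adenocarcinoma cells use K8, K18, K7 and K19 instead.

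The genes lie in the usual keratin clusters, given here on GRCm38 with the GENCODE M21 annotation, all on the minus strand. The type II genes are on chromosome 15 and have 9 exons, Krt5 at chr15:101707070-101712898, Krt6a at chr15:101689910-101694307 and Krt6b at chr15:101676023-101680287. The type I genes are on chromosome 11 and have 8 exons, Krt14 at chr11:100203162-100207548, Krt15 at chr11:100131758-100135928, Krt16 at chr11:100246091-100248902 and Krt17 at chr11:100256217-100261029.

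These genes are close copies, which bears on how reads can be assigned to them. The range is shown by the most alike and the least alike window of 60 coding bases among Krt14, Krt16 and Krt17, with capitals for bases that differ from Krt14. The most alike window begins at coding base 370 of Krt14 and reads the same in Krt16.
Krt14 chr11:100207027-100207086: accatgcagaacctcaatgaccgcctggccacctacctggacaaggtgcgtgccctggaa
Krt16 chr11:100248486-100248545: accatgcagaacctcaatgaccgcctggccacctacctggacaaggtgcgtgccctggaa
Krt17 chr11:100260648-100260707: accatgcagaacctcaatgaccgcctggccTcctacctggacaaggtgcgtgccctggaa

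The least alike window begins at coding base 547 of Krt14, and there 20 bases of Krt16 and 12 bases of Krt17 differ.
Krt14 chr11:100205641-100205700: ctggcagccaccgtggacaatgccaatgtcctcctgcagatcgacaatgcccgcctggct
Krt16 chr11:100247877-100247936: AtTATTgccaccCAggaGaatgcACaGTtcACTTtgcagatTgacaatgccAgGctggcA
Krt17 chr11:100259715-100259774: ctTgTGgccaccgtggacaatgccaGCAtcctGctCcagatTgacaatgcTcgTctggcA

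Krt6a and Krt6b are closer still, with 97.8% identity over the coding sequence, against 86.5% for Krt14 and Krt16, 84.1% for Krt14 and Krt17 and 81.5% for Krt5 and Krt6a. Their least alike window, shown because reads can be placed on the correct gene only where such bases occur, has 10 differences, in capitals for Krt6b.
Krt6a chr15:101692484-101692543: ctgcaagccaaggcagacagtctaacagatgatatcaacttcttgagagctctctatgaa
Krt6b chr15:101678303-101678362: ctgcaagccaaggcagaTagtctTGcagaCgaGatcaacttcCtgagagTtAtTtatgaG

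Of the 50-base words in the transcripts, 49.5% of those of Krt6a and 50.1% of those of Krt6b also occurred in a transcript of another gene, mostly each other. The share was 37.6% for Krt16, most of it with the pseudogene Gm11597, 14.4% for Krt14, 8.52% for Krt5, 3.99% for Krt17 and 0.67% for Krt15. With words of 100 bases it was 34.0% for Krt6a, 30.6% for Krt6b, 24.3% for Krt16 and 0 for Krt15 and Krt17. The sources used here give neither the read length nor the treatment of reads that fit several genes, so the levels of Krt6a, Krt6b and Krt16 are uncertain in a way that those of Krt15 and Krt17 are not. The pseudogene Gm11597 itself was at 12 and 7 with the empty vector, 64 and 40 with Ntn1 knocked down and 11 and 21 with Unc5b knocked down.

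Another source of uncertainty lies in exon 5 of the type II genes, where the annotation places a locus of 129 bases on the other strand. The segments are printed in the sense of the keratin, with capitals where a base differs from Krt5.
Krt5 chr15:101710274-101710402: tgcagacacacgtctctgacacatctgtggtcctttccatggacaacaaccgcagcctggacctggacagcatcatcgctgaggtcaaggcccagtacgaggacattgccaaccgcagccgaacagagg
Krt6a chr15:101692211-101692339: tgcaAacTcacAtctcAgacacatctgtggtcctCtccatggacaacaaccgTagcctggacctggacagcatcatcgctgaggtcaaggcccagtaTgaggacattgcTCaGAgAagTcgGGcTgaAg
Krt6b chr15:101678032-101678160: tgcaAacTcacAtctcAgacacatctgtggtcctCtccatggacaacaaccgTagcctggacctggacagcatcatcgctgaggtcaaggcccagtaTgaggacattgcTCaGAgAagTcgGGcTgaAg

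In this segment Krt6a and Krt6b each differ from Krt5 at 17 bases and not from each other. The locus over Krt5, Gm44323, was at 106 and 105 with the empty vector, 326 and 388 with Ntn1 knocked down and 229 and 257 with Unc5b knocked down, which is 0.315 to 0.378 of the Krt5 value of the same library. Gm44342, over Krt6a, was at 2 and 0, 126 and 119, and 6 and 25 in the same order of groups, while Gm44383, over Krt6b, was at 0 in 5 libraries and at 2 in Unc5b knock-down library 2. The strand setting of the counting is not given, so reads of these loci and of the keratin exons cannot be told apart. With their values added to those of the keratins, 6, 4 and 2 of the 7 genes were called in the comparisons below. These are the same numbers as without them. An antisense gene on the other strand, Gm49428, also shares 907 exon bases with Krt6a. It has no value in the deposited table, so it could not be added.

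For changes, the log2 of the value plus 5 was compared in a limma model of all 6 libraries over the 15330 genes whose mean reached 20, and a gene was called at a Benjamini-Hochberg adjusted p under 0.05. Fold values are ratios of group means as deposited. All 7 keratins entered the test, Krt6b only through its level with Ntn1 knocked down. With 2 libraries on each side the smallest p an exact permutation test allows is 0.333, so none is given for single values.

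**Figure D1:**
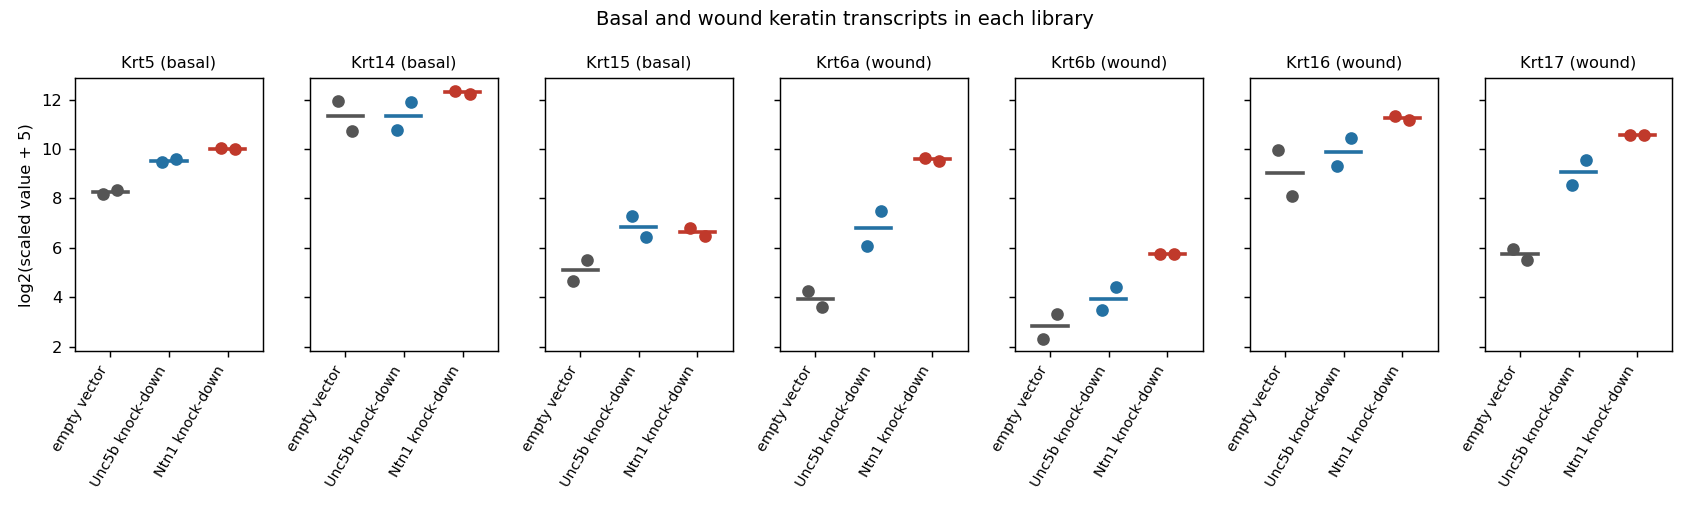
Level of each of the 7 keratins, as log2 of the scaled value plus 5 on the vertical axis, with a point for each library and a line at the group mean. The libraries of the Ntn1 knock-down lie above those of the empty vector for all 7 genes, and the Krt14 and Krt16 points of the empty vector and of the Unc5b knock-down overlap.

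With Ntn1 knocked down, 6 of the 7 keratins rose and none fell, where 8.04% of all tested genes were called higher and 7.06% lower. Krt6b is among the 6 but reached the filter only through the Ntn1 knock-down libraries, so it had to differ there. Krt6a, Krt17 and Krt6b had the largest folds, and Krt14 alone was not called. The median log2 fold change of the 7 was 2.23, against -0.02 over all tested genes. It was 1.54 over the 3 basal keratins and 3.87 over the 4 wound keratins. The medians of the 7 and of the wound keratins include Krt6b and so depend on that filter. Of the other wound keratins, Krt16 was at 2.23, Krt17 at 4.82 and Krt6a at 5.66. The basal keratins were at 0.96 for Krt14, 1.54 for Krt15 and 1.75 for Krt5. In RNA from a whole population, more cells with a transcript and more transcript per cell cannot be told apart.

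With Unc5b knocked down, 4 of the 7 rose, namely Krt5, Krt15, Krt6a and Krt17, and none fell, where 5.9% of all tested genes were called higher and 6.07% lower. The median log2 fold change of the 7 was 1.27, against 0.04 over all tested genes. This comparison shares its empty vector libraries with the preceding one, so the results are not independent. Set directly against each other, the knock-downs differed in 2 of the 7, Krt6a and Krt17, both higher with the Ntn1 knock-down, where 4.15% of tested genes were called higher and 2.95% lower.

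**Figure D2:**
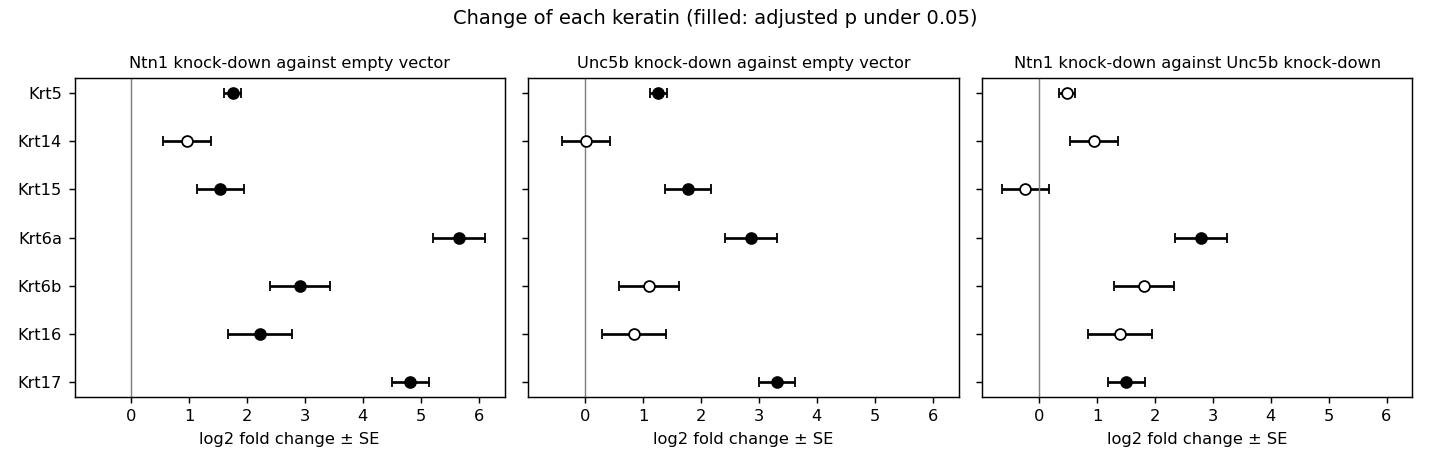
Log2 fold change of each keratin on the horizontal axis with its standard error from the limma model, for each knock-down against the empty vector and for the Ntn1 against the Unc5b knock-down. Filled points passed an adjusted p of 0.05, and they number 6, 4 and 2 from left to right.

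Krt5 encodes the basal type II keratin that pairs with K14. It was at 287 and 320 with the empty vector, 1034 and 1027 with Ntn1 knocked down and 697 and 776 with Unc5b knocked down. No groups overlapped, and the libraries of a group lay close together. The rise was 3.40-fold with Ntn1 knocked down (log2 fold change 1.75 ± 0.14, limma adjusted p = 0.000327) and 2.43-fold with Unc5b knocked down (1.27 ± 0.14, adjusted p = 0.00136). Between the knock-downs the difference did not pass the test (0.48 ± 0.14, limma adjusted p = 0.0841), although it did when either empty vector library (adjusted p = 0.0479 and 0.0476) or both (0.0398) were left out of the fit. Krt16 also passed between the knock-downs in those fits (limma adjusted p = 0.0218, 0.0199 and 0.0197), as did Krt6b (0.0345, 0.0377 and 0.0273).

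Krt14 encodes the main type I partner of K5 and was the most abundant of the 7 transcripts. With the empty vector it was at 3917 and 1692, with Ntn1 knocked down at 5233 and 4795, and with Unc5b knocked down at 1759 and 3817. The empty vector libraries alone differ 2.32-fold, and both Unc5b knock-down libraries lie between them. The log2 fold change was 0.96 ± 0.42 with Ntn1 knocked down (limma adjusted p = 0.164) and 0.01 ± 0.42 with Unc5b knocked down (adjusted p = 0.992). Without empty vector library 1 the rise with Ntn1 knocked down passed the test (limma adjusted p = 0.0177), so whether Krt14 is called depends on that library.

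Krt15 encodes another basal type I keratin. It was low everywhere, at 20 and 41 with the empty vector, 105 and 83 with Ntn1 knocked down and 152 and 81 with Unc5b knocked down. Both knock-downs lay above the empty vector and overlapped each other. The rise was 3.08-fold with Ntn1 knocked down (log2 fold change 1.54 ± 0.40, limma adjusted p = 0.0372) and 3.82-fold with Unc5b knocked down (1.78 ± 0.40, adjusted p = 0.0254). Both calls were near the threshold. In limma fits the former was lost with no filter on low values (adjusted p = 0.13), no variance trend (0.0742), or without empty vector library 1 (0.101) or an Ntn1 knock-down library (0.227 and 0.144). The latter was lost with no filter (limma adjusted p = 0.115), no trend (0.0606), only those groups (0.0652), or without empty vector library 1 (0.0606), Unc5b knock-down library 1 (0.145) or an Ntn1 knock-down library (0.0645 and 0.0627).

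Krt6a encodes a type II wound keratin induced at the edge of skin wounds. It was at 14 and 7 with the empty vector, at 789 and 731 with Ntn1 knocked down and at 62 and 176 with Unc5b knocked down. The groups did not overlap, and the Unc5b knock-down lay between the others. The fold was 72.4 with Ntn1 knocked down (log2 fold change 5.66 ± 0.45, limma adjusted p = 0.000276) and 11.3 with Unc5b knocked down (2.87 ± 0.45, adjusted p = 0.00555). The latter call was lost with no filter on low values (limma adjusted p = 0.0557). An estimated 10 reads stand behind the empty vector value. On estimated reads the ratio of shares was 72.3 for the Ntn1 knock-down, with an exact 95% interval of 39.0 to 152. For the Unc5b knock-down it was 11.0, with an interval of 5.77 to 23.7. These intervals pool the libraries of a group and cover counting error only. The Unc5b knock-down libraries alone stood at 29 and 76 estimated reads of Krt6a. Krt6a was 6.39-fold higher with Ntn1 than with Unc5b knocked down (log2 fold change 2.80 ± 0.45, limma adjusted p = 0.0105). That call was lost without library 1 (limma adjusted p = 0.138) or 2 (0.129) of the Ntn1 knock-down, with no filter (0.0777) and with no variance trend (0.0519).

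Krt6b encodes the near-identical sister of K6a and stayed rare. It was at 0 and 5 with the empty vector, 48 and 49 with Ntn1 knocked down and 6 and 16 with Unc5b knocked down. The empty vector values stand for 2 estimated reads in all, the Ntn1 knock-down for 36 and the Unc5b knock-down for 10. The ratio of read shares was 22.8 with Ntn1 knocked down, with an exact 95% interval of 5.87 to 195, and 5.26 with Unc5b knocked down, with an interval of 1.12 to 49.4. These intervals cover counting error only. Krt6b reached the filter on low values only through the Ntn1 knock-down libraries, so it had to differ there. The log2 fold change was 2.92 ± 0.52 with Ntn1 knocked down (limma adjusted p = 0.00773) and 1.10 ± 0.52 with Unc5b knocked down (adjusted p = 0.217). The first call was lost without library 1 (limma adjusted p = 0.0792) or 2 (0.0794) of the Ntn1 knock-down.

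Krt16 encodes the type I wound keratin that pairs with K6. It was already abundant in empty vector library 1, at 998, but at 270 in library 2, and it was at 2597 and 2321 with Ntn1 knocked down and at 624 and 1397 with Unc5b knocked down. The Ntn1 knock-down lay above all other libraries, while the Unc5b knock-down overlapped the empty vector. The fold was 3.88 with Ntn1 knocked down (log2 fold change 2.23 ± 0.55, limma adjusted p = 0.0301) and 1.59 with Unc5b knocked down (0.84 ± 0.55, adjusted p = 0.379). In limma fits the rise with Ntn1 knocked down was lost without empty vector library 2 (adjusted p = 0.0512) or either Ntn1 knock-down library (0.186 and 0.161), with no filter (0.136) and with no variance trend (0.102), and the Unc5b knock-down passed without empty vector library 1 (adjusted p = 0.0148).

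Krt17 encodes a type I keratin of wounded skin, hair follicles and many carcinomas. It was at 57 and 41 with the empty vector, 1491 and 1511 with Ntn1 knocked down and 365 and 753 with Unc5b knocked down. The groups did not overlap. The fold was 30.6 with Ntn1 knocked down (log2 fold change 4.82 ± 0.32, limma adjusted p = 0.000163) and 11.4 with Unc5b knocked down (3.31 ± 0.32, adjusted p = 0.000653). Between the knock-downs Krt17 was 2.69-fold higher with Ntn1 lowered (log2 fold change 1.51 ± 0.32, limma adjusted p = 0.0279), a call that was lost without Ntn1 knock-down library 1 (adjusted p = 0.226), without library 2 (0.216), without Unc5b knock-down library 1 (0.105), with no filter (0.121) and with no variance trend (0.0906).

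For Krt14 and Krt16 the libraries of a group lay far apart. Empty vector library 1 was above library 2 for both, and Unc5b knock-down library 2 was above library 1 for both. Krt17, Krt6a and Krt6b were also higher in Unc5b knock-down library 2, whereas Krt15 was lower there and Krt5 was at 697 and 776. Ribosomal RNA genes took 1.61% to 2.03% of the values, and ribosomal protein genes took 2.07% and 2.22% with the empty vector, 1.68% and 1.72% with Ntn1 knocked down and 2.02% and 2.13% with Unc5b knocked down; their part in the keratin values was not tested.

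To compare genes with each other, values were divided by the length of each gene's exons in kilobases. With the empty vector the order of the levels per kilobase was Krt14 at 1595, Krt16 at 405, Krt5 at 138 and Krt17 at 31.6. Below these came Krt15 at 17.3, Krt6a at 4.34 and Krt6b at 1.12. No neighbours in this order overlapped, but in library 2 Krt6a and Krt6b stood for only 3 and 2 estimated reads. With Ntn1 knocked down the order was Krt14 at 2852, Krt16 at 1571, Krt17 at 968 and Krt5 at 469. Krt6a at 314, Krt15 at 53.2 and Krt6b at 21.7 followed, again without overlap between neighbours. Krt17 had passed Krt5, and Krt6a had passed Krt15. With Unc5b knocked down it was Krt14 at 1586, Krt16 at 646, Krt17 at 360, Krt5 at 335, Krt15 at 65.9, Krt6a at 49.2 and Krt6b at 4.92. There Krt16 and Krt17, Krt17 and Krt5, and Krt15 and Krt6a overlapped, so those neighbours have no order beyond their spread.

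Ratios were also formed within each library. The summed wound keratins were 0.287 and 0.180 of the summed basal keratins per kilobase with the empty vector, 0.472 and 0.567 with Unc5b knocked down, and 0.847 and 0.858 with Ntn1 knocked down. The groups did not overlap, and the wound keratins never exceeded the basal ones. As a share of all 7, the wound keratins made up 22.3% and 15.3% with the empty vector, 32.1% and 36.2% with Unc5b knocked down and 45.8% and 46.2% with Ntn1 knocked down.

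The ratio of Krt16 to Krt14 was steadier within groups than either gene alone. It was 0.286 and 0.179 with the empty vector, 0.398 and 0.411 with Unc5b knocked down and 0.557 and 0.544 with Ntn1 knocked down. Krt17, which shares little sequence at 100 bases, stood at 0.0165 and 0.0275 of Krt14 with the empty vector, 0.235 and 0.224 with Unc5b knocked down and 0.323 and 0.357 with Ntn1 knocked down.

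Partner keratins were far from equal at the transcript level. Krt14 exceeded Krt5 by 17.1 and 6.61 times per kilobase with the empty vector, 6.32 and 5.83 times with Ntn1 knocked down and 3.15 and 6.15 times with Unc5b knocked down. Krt16 exceeded Krt6a by 110 and 59.6 times with the empty vector, where Krt6a stood for only 7 and 3 estimated reads. The excess was 5.09 and 4.91 times with Ntn1 knocked down and 15.6 and 12.3 times with Unc5b knocked down. The wound pair was therefore closest to equal with Ntn1 knocked down among these libraries, and still had more type I than type II transcript.

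**Figure D3:**
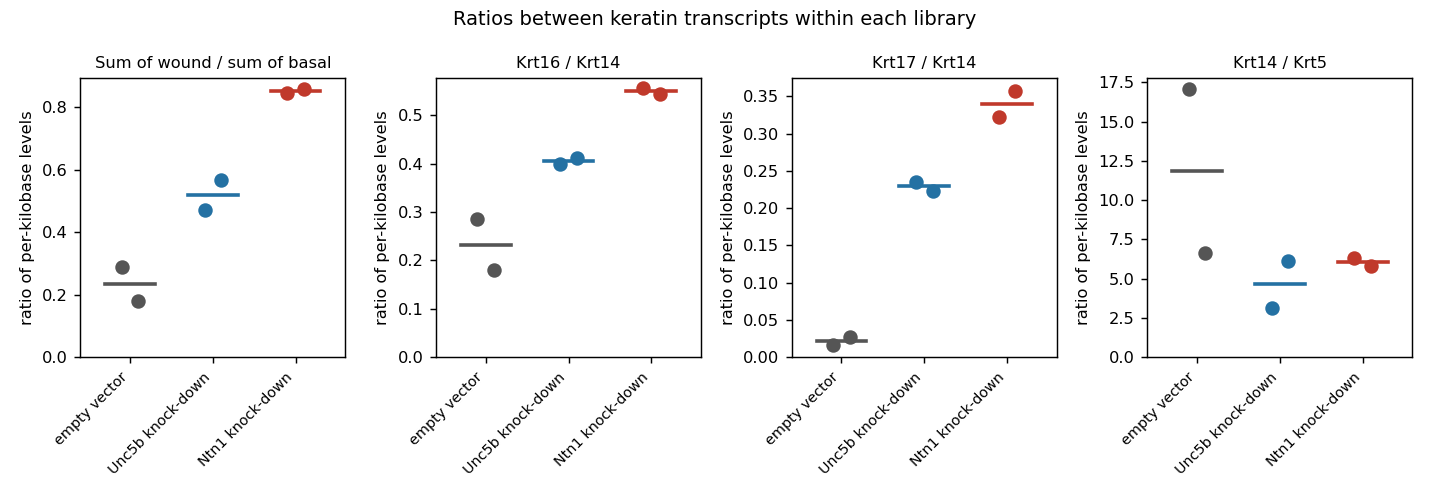
Ratios of per-kilobase levels within each library, on a linear axis from 0, with a point for each library and a line at the group mean. The groups do not overlap for the sum of wound over basal keratins or for Krt16 and Krt17 over Krt14, while Krt14 over Krt5 spans 6.61 to 17.1 with the empty vector.

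The 7 keratins were a minor part of the line's keratin transcripts. They made up 13.7% and 6.56% of the per-kilobase level of all keratin genes with the empty vector, 22.0% and 21.5% with Ntn1 knocked down and 9.65% and 16.3% with Unc5b knocked down. The simple epithelial keratins dominated. Krt8 was at 17575 and 15208 with the empty vector and Krt18 at 9797 and 11337. Epcam was at 8032 to 10127 and Cdh1, which encodes E-cadherin, at 5719 to 9380 over all libraries. These levels fit the label of an epithelial line.

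Of the 11 other keratins that could be tested, 3 rose and 4 fell with Ntn1 knocked down. With Unc5b knocked down 0 rose and 3 fell. Of all tested genes, 8.04% were called higher and 7.06% lower with Ntn1, and 5.9% and 6.07% with Unc5b. Krt7, a keratin of simple and ductal epithelia, went from 16203 and 15263 with the empty vector to 9756 and 9183 with Ntn1 knocked down (log2 fold change -0.73 ± 0.10, limma adjusted p = 0.00264). Krt19, whose gene lies between Krt15 and Krt14, went from 1191 and 1242 to 442 and 419 with Ntn1 knocked down (-1.49 ± 0.19, limma adjusted p = 0.00182) and to 671 and 454 with Unc5b knocked down (-1.13 ± 0.19, adjusted p = 0.00755). The simple keratins did not move together, since Krt18 rose with Ntn1 knocked down, to 14678 and 14442 (log2 fold change 0.47 ± 0.11, limma adjusted p = 0.0234), and Krt8, at 20874 and 19524, was not called (0.30 ± 0.13, adjusted p = 0.154). The Krt7 call was lost without Ntn1 knock-down library 2 (limma adjusted p = 0.059), and that of Krt19 with Unc5b knocked down with no filter (0.0515). The Krt18 call was lost without empty vector library 1 (limma adjusted p = 0.0558) or an Ntn1 knock-down library (0.186 and 0.17), with no filter (0.0713) and with no variance trend (0.101). Krt7, Krt19 and Krt42 were chosen for description after their values were seen.

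A list of 20 other keratins of stratified and cornified epithelia had 5 members that could be tested. With Ntn1 knocked down 1 rose and 1 fell, and with Unc5b knocked down 1 fell. Each of these is 20% of the 5. Of all tested genes, 8.04% were called higher and 7.06% lower with Ntn1, and 6.07% lower with Unc5b. Krt76, a keratin of the palate, was at 200 and 352 with the empty vector, 57 and 58 with Ntn1 knocked down (log2 fold change -2.11 ± 0.38, limma adjusted p = 0.00797) and 85 and 42 with Unc5b knocked down (-2.06 ± 0.38, adjusted p = 0.0111). Krt80 rose with Ntn1 knocked down, from 1266 and 864 to 1762 and 1660 (0.71 ± 0.18, limma adjusted p = 0.0337). Leaving out any library other than empty vector library 1 ended the Krt80 call (limma adjusted p from 0.0529 to 0.221). For Krt76 the same came of leaving out an Ntn1 knock-down library (0.079 and 0.0759) or, with Unc5b knocked down, library 2 of that group (0.0769), and of using no filter (0.0555 and 0.0738). Krt10, the keratin that marks the first suprabasal layer, was at 57 to 131 in all libraries and was not called.

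Genes next to the 7 were not changed alike. On chromosome 11, Krt42 starts 62.3 kb from the start of Krt14 and was at 12 and 7 with the empty vector and 38 and 70 with Ntn1 knocked down (log2 fold change 1.99 ± 0.54, limma adjusted p = 0.0415). That call was lost without empty vector library 2 (limma adjusted p = 0.115) or an Ntn1 knock-down library (0.113 and 0.266), with no filter (0.131) and with no variance trend (0.0737). Between Krt15 and Krt14, Krt19 was lower in both knock-downs, as given above. On chromosome 15 none of the other plotted keratins was called higher. Krt7, 302 kb from Krt5, and Krt76, 180 kb from it on the other side, were lower with Ntn1 knocked down.

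**Figure D4:**
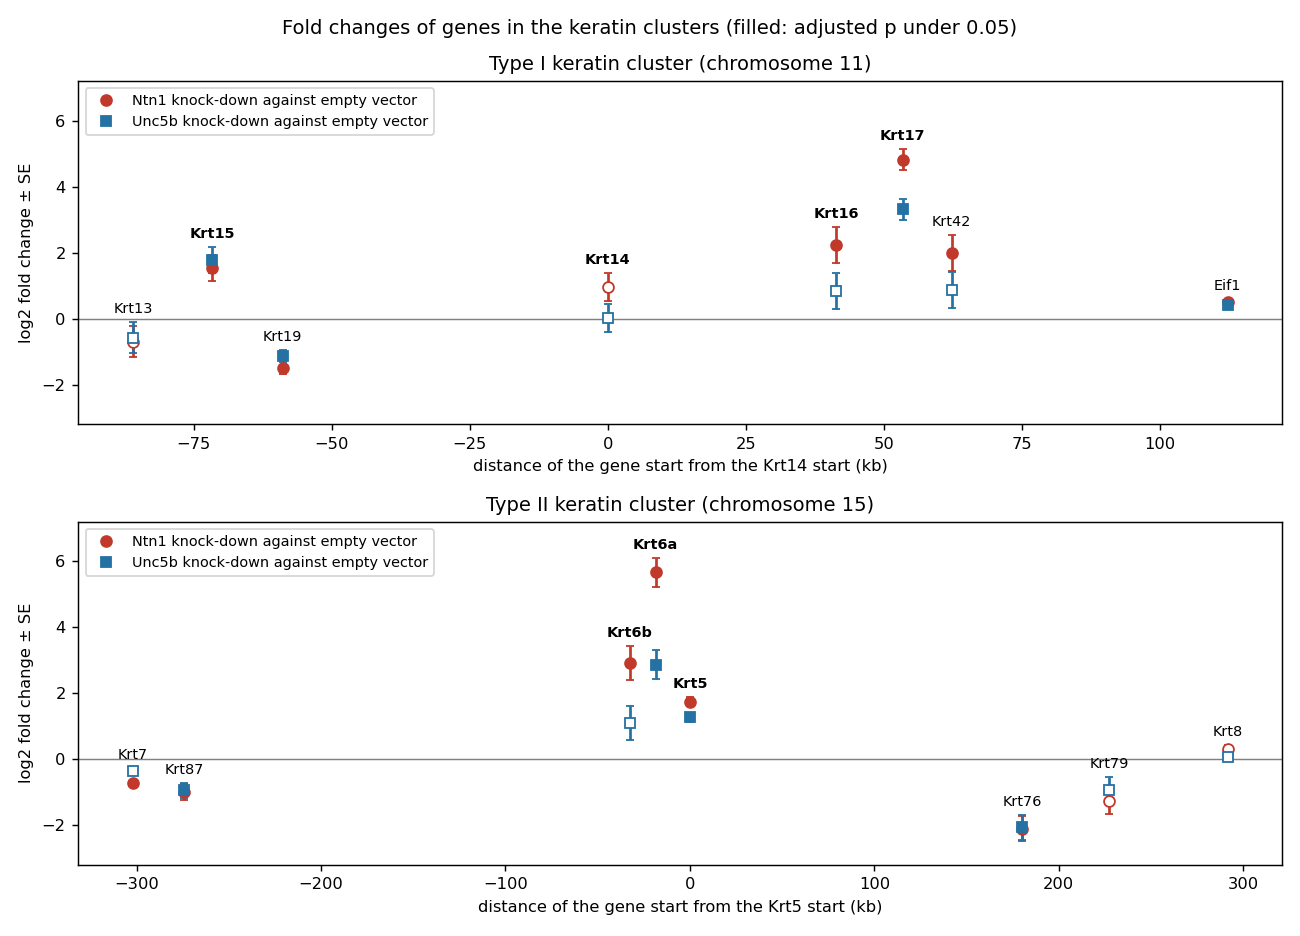
Log2 fold change with its standard error for tested protein-coding genes of the keratin clusters, plotted against the distance in kilobases of the gene's start from the start of Krt14 (top) or Krt5 (bottom), with the 7 keratins in bold and filled points at an adjusted p under 0.05. Krt19, at a log2 fold change of -1.49 with Ntn1 knocked down, lies between Krt15 at 1.54 and Krt14 at 0.96.

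The promoter of Krt5 is shown because Krt5 rose in both knock-downs with the smallest spread of the 7. RefSeq gives an entry of 250 bases before to 50 after the start for 2 of the 7 genes, Krt5 and Krt14. The start in the Krt14 entry lies downstream of that gene's annotated coding start, so that entry is not printed. Capitals mark matches to a TATA-like motif and to the E-box, spelled out after the sequence.
Krt5 promoter, GRCm38.p6, minus strand, chr15:101712856-101713155: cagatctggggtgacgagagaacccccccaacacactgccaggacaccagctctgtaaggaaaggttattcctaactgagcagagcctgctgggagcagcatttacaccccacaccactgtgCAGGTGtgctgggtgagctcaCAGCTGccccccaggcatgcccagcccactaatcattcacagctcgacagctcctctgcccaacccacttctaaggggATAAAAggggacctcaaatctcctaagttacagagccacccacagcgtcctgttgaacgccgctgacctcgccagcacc

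On either strand the ATAAAA motif occurred once, at position -29 from the start, and 18.5% of 32851 promoters of this length hold it. The E-box, CANNTG, occurred at 2 places and is in 72.3% of promoters. The motifs GCCNNNGGC for AP-2 and TGANTCA for AP-1, which are held by 16.6% and 7.81% of promoters, were not in this window. These are matches of letters only.

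Transcription factors known to act on the promoters of these keratins were listed, 35 in all, of which 27 could be tested. With Ntn1 knocked down 2 rose and 7 fell, which is 7.41% and 25.9% of tested members, against 8.04% and 7.06% of all tested genes. With Unc5b knocked down 2 rose and 6 fell, which is 7.41% and 22.2%, against 5.9% and 6.07%. The median log2 fold changes were -0.17 and -0.30, against -0.02 and 0.04 over all genes. Trp63 encodes p63, the master regulator of stratified epithelia, which acts on the Krt5 and Krt14 genes. It was at 94 and 96 with the empty vector, 33 and 31 with Ntn1 knocked down and 152 and 88 with Unc5b knocked down. Trp63 was thus lower with Ntn1 knocked down (log2 fold change -1.43 ± 0.31, limma adjusted p = 0.0178), where Krt5 was highest. That call was lost without library 1 or 2 of the Ntn1 knock-down and with no filter on low values (limma adjusted p = 0.0702).

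Jun, which encodes a subunit of AP-1, went from 1401 and 1221 with the empty vector to 3384 and 2987 with Ntn1 knocked down (log2 fold change 1.28 ± 0.14, limma adjusted p = 0.000856) and to 2434 and 2865 with Unc5b knocked down (1.01 ± 0.14, adjusted p = 0.00298). Fosl2, another AP-1 subunit, fell from 4235 and 4612 to 2214 and 2223 with Ntn1 knocked down and to 2640 and 2360 with Unc5b knocked down. Klf4, a factor of differentiating epidermis, went from 2195 and 1617 to 856 and 780 with Ntn1 knocked down and to 460 and 781 with Unc5b knocked down. The Klf4 call with Ntn1 knocked down was lost without library 1 (limma adjusted p = 0.102) or 2 (0.133) of the Ntn1 knock-down. The same call was also lost with no filter on low values (0.0812) and with no variance trend (0.0634). The Klf4 call with Unc5b knocked down was lost with no filter (adjusted p = 0.0505).

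Of 25 other genes of basal keratinocytes, 23 could be tested. With Ntn1 knocked down 12 rose and 1 fell, with a median log2 fold change of 0.71, and with Unc5b knocked down 4 rose and 2 fell, with a median of 0.13. These are 52.2% higher and 4.35% lower of the tested members with Ntn1, against 8.04% and 7.06% of all tested genes, and 17.4% and 8.70% with Unc5b, against 5.9% and 6.07%. The all-gene medians were -0.02 and 0.04. The 12 genes higher with Ntn1 knocked down became 6 when either library of that knock-down was left out, and the 4 higher with Unc5b knocked down became 2 without either library of the Ntn1 knock-down or without library 2 of the Unc5b knock-down, and 7 without empty vector library 1. Lama3 encodes a laminin chain that helps to anchor basal cells to the basement membrane. Lama3 went from 4294 and 3011 with the empty vector to 21692 and 19212 with Ntn1 knocked down (log2 fold change 2.50 ± 0.17, limma adjusted p = 0.000203) and to 11477 and 13355 with Unc5b knocked down (1.78 ± 0.17, adjusted p = 0.000658). The desmosomal cadherin genes Dsg3 and Dsg2 rose with Ntn1 knocked down, Dsg3 from 16 and 9 to 143 and 165 and Dsg2 from 165 and 98 to 1153 and 1223. With Unc5b knocked down Dsg3 was at 13 and 7 and Dsg2 at 167 and 243. Dsg3 reached the filter's mean of 20 only through the Ntn1 knock-down libraries, so it had to differ there, and 11 of the 12 higher genes reached it otherwise. In the direct comparison of the knock-downs 8 of the 23 were higher with the Ntn1 knock-down and 0 lower. The 8 are 34.8% of the tested members, where 4.15% of all tested genes were called higher and 2.95% lower. Dsg3 and Dsg2 are among the 8, and without Dsg3, which reached the filter only through the Ntn1 knock-down, 7 remain. Dropping library 1 or library 2 of the Ntn1 knock-down ended the calls of both Dsg3 and Dsg2. Leaving out either of these libraries left 0 of the 8, and leaving out library 1 or 2 of the Unc5b knock-down left 2 and 3.

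Of 49 genes that keratinocytes switch on in wounds and hyperproliferation, 47 were in the table and 33 could be tested. With Ntn1 knocked down 22 rose and 1 fell, and with Unc5b knocked down 22 rose and 1 fell, with median log2 fold changes of 1.82 and 1.73. Each count of 22 is 66.7% of the tested members, where 8.04% and 5.9% of all tested genes were called higher. Of the 22 with Ntn1, 2 (Gjb2 and Stfa3) reached the filter only through those libraries, which leaves 20, and the 22 became 14 when either library of the Ntn1 knock-down was left out. Directly compared, 4 were higher and 3 lower with the Ntn1 knock-down, 12.1% and 9.09%, against 4.15% and 2.95% of all tested genes. Gjb2 and Stfa3 are 2 of these 4. Without library 1 or 2 of the Ntn1 knock-down 0 were higher and 0 lower, and the limma adjusted p was 0.242 or 0.211 for Gjb2 and 0.0565 or 0.0538 for Stfa3. Mmp13, a collagenase gene, went from 100 and 231 with the empty vector to 2475 and 2428 with Ntn1 knocked down and to 3819 and 2177 with Unc5b knocked down. Gjb2 encodes connexin 26, a gap junction protein of hyperproliferative epidermis. With the empty vector it was listed at 0 in both libraries, and it stood at 143 and 135 with Ntn1 knocked down and at 17 and 46 with Unc5b knocked down. Stfa3, a stefin gene, was likewise listed at 0 with the empty vector and at 207 and 239 with Ntn1 knocked down, but at 2 and 9 with Unc5b knocked down, near the level of 3 reads. Il1a, which encodes the cytokine interleukin-1 alpha, and Mmp9, a gelatinase gene, rose in both knock-downs. Il1a went from 1246 and 903 to 10538 and 10494 with Ntn1 and to 12275 and 11227 with Unc5b knocked down, and Mmp9 from 134 and 43 to 1158 and 1015 and to 3061 and 3171.

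Among 25 genes for proteins that link or regulate keratin filaments, 24 were in the table and 19 were tested, and 3 rose and 3 fell with Ntn1 knocked down, and 1 rose and 5 fell with Unc5b knocked down. That is 15.8% each way with Ntn1 and 5.26% higher and 26.3% lower with Unc5b, beside 8.04% and 7.06%, and 5.9% and 6.07%, of all tested genes. Leaving out single libraries gave 1 to 6 higher with Ntn1 and 1 to 4 lower with Unc5b. Tgm1, the transglutaminase that ties keratins to the cornified envelope, went from 1022 and 846 with the empty vector to 93 and 86 with Ntn1 knocked down (log2 fold change -3.31 ± 0.18, limma adjusted p = 9.7e-05) and to 489 and 419 with Unc5b knocked down (-1.03 ± 0.18, adjusted p = 0.00899), the latter call being lost without Unc5b knock-down library 2 (adjusted p = 0.0816). Trim29, which encodes a keratin-binding protein, rose in both, from 65 and 30 to 283 and 245 and to 419 and 340. Of 25 differentiation genes 12 were tested, with 2 up and 2 down with Ntn1 knocked down and 4 up and 2 down with Unc5b knocked down, which became 0 to 3 and 0 to 4 up when single libraries were left out. In the fit of all libraries these differentiation genes came to 16.7% each way with Ntn1, and 33.3% higher and 16.7% lower with Unc5b. Lor, which encodes the envelope protein loricrin, rose with Unc5b knocked down, from 26 and 16 to 126 and 102. It was at 29 and 18 with Ntn1 knocked down. Without Unc5b knock-down library 1 that call was lost (limma adjusted p = 0.0552). Tgm1 stands in both lists.

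For each keratin, the genes most like it were the 3 whose mean-centred log2 profile over the 6 libraries had the smallest root mean square difference from it. For Krt5 these were Cotl1, at a difference of 0.0807, Gm44323, the locus inside its own exon, and Ccbe1. Krt17 was nearest to Itgb3 at 0.266, Gjb2 at 0.307 and Nes at 0.428, and Krt6a to Mrc1 at 0.264, Gjb2 at 0.411 and Krt17 at 0.552. Krt6a was the sole keratin of the 7 with another of them among its nearest 3. Krt14 was nearest to Gpr155, with RP24-89C4.5 also among its nearest 3, and Krt16 to Epha8, Klrc1 and Prnd. Bcat1 at 0.107 led for Krt6b, before Kctd17 and Gm2115, and Aga at 0.173 for Krt15, before Nphp4 and RP23-98C9.5. The likeness rests on 6 libraries in 3 groups, so any gene that separates these groups by the same steps scores as alike. Some of these genes were low with the empty vector, Itgb3 at 6 and 2, Mrc1 at 4 and 2, Epha8 at 10 and 0 and Gjb2 at 0 and 0. For them, and for Krt6b at 0 and 5, the added 5 sets much of the profile.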

How the data were processed

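RNA-seq was analysed in 6 libraries, 2 in each of 3 groups. The authors' deposited table was read as a score: it holds whole numbers, scaled and rounded, with a total near 20 M per library. Per the submitters' processing notes, STAR, Picard and HTSeq and the GRCm38 (mm10) build were used. The sources used here give no versions, no counting or strand settings and no scaling step. Depth was estimated from the step that made the highest share of the values up to 10000 whole multiples within 0.5. That share was 99.96% to 100% per library, where 32.7% to 50.9% would fit by chance. No count model was fitted to call genes, although the tests had been planned for either unit. The exact intervals of Krt6a and Krt6b used estimated reads pooled over the libraries of each group. The log2 of the value plus 5 was fitted in R 4.3.3 using limma 3.58.1, with a variance trend, 3 residual and 5.33 prior degrees of freedom and 2-sided tests adjusted within each comparison. The script was tested on simulated data. Gene positions and exon lengths come from GENCODE M21.

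The members and gene lists were chosen with earlier results of these data known. Named genes are the 7 keratins, both targets, at most 4 called genes per list and comparison with the largest changes, and the 3 genes most like each keratin; label checks were Krt8, Krt18, Epcam and Cdh1. Single cell type markers are also named where they bear on a marker sum. Alternatives covered the value added, the filter, the scaling, the model and each library left out. A few items that these rules would name are not reported here.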

Additional observations from a re-analysis of the deposited data

How the results depend on the processing

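With 2 libraries per group and few reads at low genes, calls depended on the fit more than directions did. Of the 12 calls of the 7 keratins none changed direction under any alternative. Those of Krt5 and Krt17 against the empty vector, and of Krt6a in the Ntn1 knock-down, held under every alternative run, and Krt6a in the Unc5b knock-down was lost with no filter (limma adjusted p = 0.0557). Adding 20 in place of 5 moved the median log2 fold change of the 7 in the Ntn1 knock-down from 2.23 to 1.70.

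Genes called numbered 2314 in the Ntn1 knock-down, 1835 in the Unc5b knock-down and 1088 between the knock-downs. They numbered 1289, 791 and 302 with no filter and 1462, 1115 and 454 without the variance trend. With only the 2 groups compared, 950 were called in the Unc5b knock-down and 1856 between the knock-downs. Leaving out 1 library gave 507 to 2769, 680 to 2428 and 34 to 1842. Of the 7 keratins, 2 were called in the Unc5b knock-down with no filter. Between the knock-downs 0 were called with no filter, 0 without the trend and 5 with only those groups. Leaving out 1 library gave 3 to 6 in the Ntn1 knock-down and 0 to 5 between the knock-downs, the lowest counts coming without an Ntn1 knock-down library.

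Log2 fold changes that were not called in the main analysis changed sign. For Krt14 under the Unc5b knock-down, median-of-ratios scaling gave -0.025, and leaving out 1 library gave -0.60 to 0.61, negative if empty vector library 2 or Unc5b knock-down library 2 was the one dropped. For Krt16 in that comparison the range was -0.10 to 1.77, lowest if empty vector library 2 was dropped. For Krt15 between the knock-downs it was -0.67 to 0.19, highest if Unc5b knock-down library 1 was dropped.

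The labels do not say whether equal replicate numbers pair the samples. Deviations of equally numbered libraries correlated at 0.16 between empty vector and Ntn1 knock-down and at -0.45 between empty vector and Unc5b knock-down. Between the knock-downs the correlation was -0.17. With 2 libraries per group these values cannot decide whether samples were paired. With a replicate block 1465, 1102 and 459 genes were called, and 4, 3 and 1 of the 7 keratins. The calls lost with the block were Krt15 (limma adjusted p = 0.0794) and Krt16 (0.0641) with Ntn1 knocked down, Krt15 (0.0623) with Unc5b knocked down and Krt17 (0.0668) between the knock-downs.

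Of 75 calls of the targets, listed genes and other keratins that were recomputed, 29 held under every alternative, and the most, 35, were lost without Ntn1 knock-down library 2.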
